A study of Mus musculus with 15 samples.

Results

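The genes described here are the nuclear genes that encode subunits of the mitochondrial respiratory chain and ATP synthase, measured in the auditory nerve of the mouse at 5 ages. They were chosen by name: symbols that start with Ndufa, Ndufb, Ndufc, Ndufs, Ndufv, Uqcr, Cox4 to Cox8 or Atp5, together with Sdha, Sdhb, Sdhc, Sdhd and Cyc1, without the Ndufaf assembly factors. Of the 18536 genes in the table, 84 had such a name and 83 of these had a normalized read count of at least 10 in at least 3 libraries, among 16723 genes that passed that filter. Cox7b2, a testis isoform of a cytochrome c oxidase subunit, was below it at a mean of 3.36 at P3 and 4.92 in the adult. The members comprised 36 genes of complex I, 4 of complex II, 9 of complex III, 16 of complex IV and 15 of complex V. Another 3 (Atp5s, Cox7a2l and Ndufa4l2) share the names but are not counted here as subunits of a complex, and Ndufa4 was placed with complex IV. Mitochondrially encoded subunits were not analysed here.

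RNA came from microdissected auditory nerve of mice at postnatal days 3 (P3), 7 (P7), 14 (P14) and 21 (P21) and of adults, with 3 libraries per age, and the labels name no treatment. Each library pooled the 2 cochleae of 1 mouse, so that p-values measure the spread between mice. Strain, sex, litter, sequencing run and the adult age in days were not given in the sources used here, and the titles of the adult libraries mark them as controls. The dissected nerve is a mixture of cells: all 9 neuronal markers examined and all 8 markers of myelinating Schwann cells were present at every age.

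In the respiratory chain, complex I takes electrons from NADH and complex II takes them from succinate. Both pass them through ubiquinone to complex III, then through cytochrome c to complex IV, which reduces oxygen. Complexes I, III and IV pump protons across the inner mitochondrial membrane, and complex V, the ATP synthase, uses that gradient to make ATP. Most subunits are encoded in the nucleus. Several subunits of complex IV have a second isoform that is known from heart and skeletal muscle, testis or hypoxic cells. Auditory neurons fire at high rates once hearing begins, toward the end of the second postnatal week in the mouse, and depend on mitochondrial ATP to restore their ion gradients.

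Values are read counts divided by a size factor per library. Fold changes are log2 differences of value + 1 with their standard error, from 1 limma fit over all 15 libraries and all tested genes, and a gene is said to rise or fall where its Benjamini-Hochberg adjusted p over all tested genes was under 0.05. The libraries held between 35250155 and 42258736 reads recovered from these values. P21 replicate 2 stood apart: its members lay at a median log2 difference of 0.52 above the mean of the other P21 libraries, and it was the highest P21 library for 75 of 83 members and the highest of all 15 libraries for 71. The difference followed transcript length in all genes. For transcripts under 600 bp it was 0.58 in members and 0.49 in other genes, and for those of 1500 bp or more it was 0.13 and -0.07. P14 replicate 1 differed in the same direction, with a median under 600 bp of 0.28 for the members and 0.23 for other genes. Both libraries were also among 4 (P14 replicate 1, P21 replicates 1 and 2, adult replicate 3) that read between 0 and 26.7 for the Y-linked gene Eif2s3y, against at least 1576 in the others. Results at P21 are therefore also given without replicate 2. Leaving out all 4 libraries low in Eif2s3y keeps only replicate 3 at P21, so for steps with P21 that fit is given by its effect size only.

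Respiratory chain genes rose early and were lower again in the adult. From P3 to P7, 46 of the 83 members rose and none fell (55.4%), against 15.4% of all tested genes that rose and 28.1% that changed in either direction. The median log2 change of the members was 0.48, and that of all tested genes was -0.02. In bulk tissue, fewer cells of a type and less RNA per cell cannot be told apart. From P7 to P14, 29 rose and none fell (34.9%), against 24.3% of all genes that rose and 48.1% that changed, and the members' median was 0.24. From P21 to the adult 61 members fell and 3 rose, whereas 24.1% of all genes fell, 25.4% rose and 49.4% changed in total. The members' median was -0.52. This count depended on the fit: 17 fell and 13 rose with a trend on transcript length removed, 38 fell and 1 rose when only these 2 ages were fitted, and 49 fell and 3 rose without P21 replicate 2. Over the whole span, adult against P3, 48 members were higher and 4 lower, against 34.4% and 34.3% of all genes (68.7% in either direction), with a median of 0.43.

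Between P14 and P21 few members differed. Atp5s alone was called, with 1 of 83 higher and none lower against 3.29% of all genes that rose and 9.29% that changed. At an unadjusted p under 0.05, 7 members were higher and 1 lower in limma, while edgeR called 1 and DESeq2 called 2. Without P21 replicate 2 none was called and the members' median fell from 0.15 to 0.02, and without P21 replicate 1 the count was 2. The mean was highest at P21 for 68 members, at P14 for 4, at P7 for 4, at P3 for 1 and in the adult for 6. Without P21 replicate 2 these counts were 37 at P21, 30 at P14, 9 at P7, 1 at P3 and 6 in the adult. Jointly over the 5 ages, 80 of 83 members differed, against 85.4% of all genes.

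**Figure D1:**
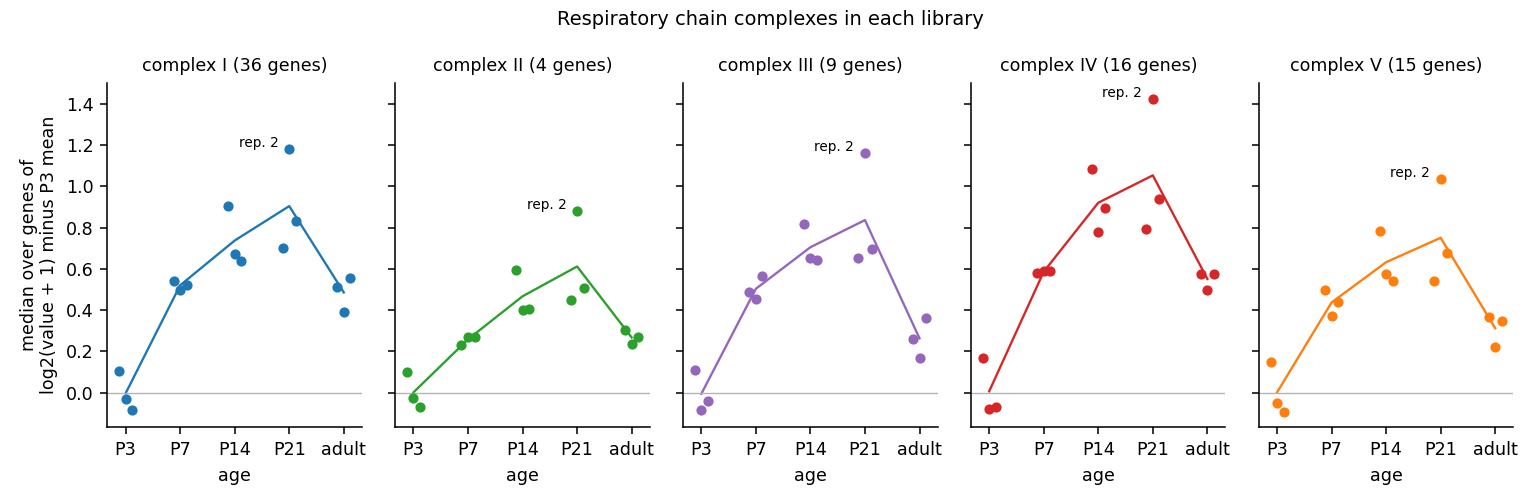
Median over the genes of each complex of log2(value + 1) minus the gene's P3 mean (vertical axis) at 5 ages (horizontal axis); each point is 1 library and the line joins the means of 3 libraries. All 5 complexes climb from P3 to P14, P21 replicate 2 lies above the other P21 libraries, and the adult libraries lie above P3, for complex IV between 0.50 and 0.58.

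Sorted by their calls in the 4 steps, most members followed 1 of a few courses. This sorting depended on the fit. With the length trend removed, 55 members rose from P7 to P14 in place of 29, and 17 fell in the adult in place of 61. The largest set, 38 members, rose from P3 to P7, was not called at P14 or P21, and fell in the adult. It held small subunits such as Ndufa1, Cox7b, Uqcrb and Atp5j2 beside Sdhb, Sdhd and Uqcrc2. A second set of 11 rose only from P7 to P14 and was not called afterwards, among them Atp5a1, Cox4i1, Cox5a, Cox6a1, Cyc1, Ndufs7 and Sdhc. Another 8 rose from P7 to P14 and then fell in the adult, among them Cox8b, Cox5b, Atp5g1 and Ndufs3, and 10 fell in the adult with no earlier call. Sdha and Uqcrc1 rose from P7 to P14 and again from P21 to the adult, and Atp5b rose in these 2 steps and from P3 to P7. The 5 members called in none of the 4 steps were Cox6a2, Cox6b2, Cox7a1, Ndufa4l2 and Ndufs5. Courses were counted for members only, so whether any of them is more frequent here than in all tested genes was not tested.

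**Figure D2:**
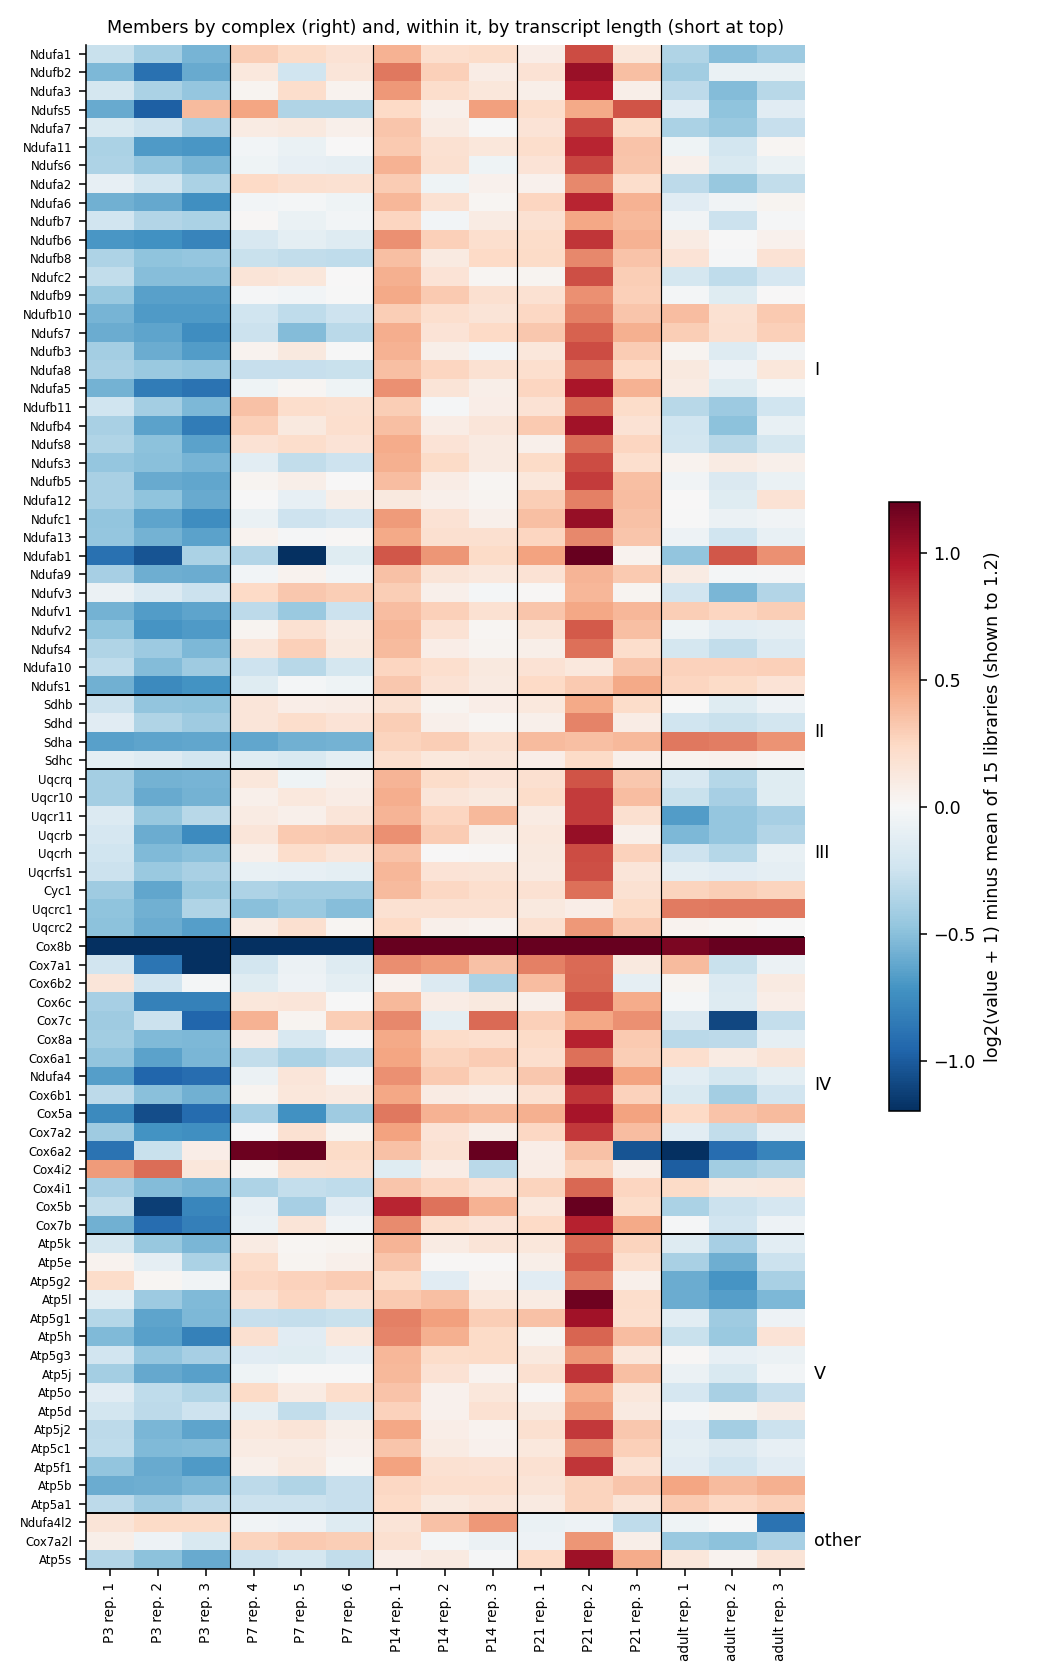
Each row is 1 member (1 of the 83 is not shown) and each column 1 library; colour gives log2(value + 1) minus the gene's mean over the 15 libraries, limited at 1.2 in either direction. Members are ordered by complex and, within it, from short to long transcripts; P3 is low in most rows, P21 replicate 2 is highest in 71 of 83, and the long transcripts Sdha, Uqcrc1 and Atp5b stay high in the adult.

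The fall from P21 to the adult followed transcript length, in these genes and in all others. Across members the Spearman correlation of the change with length was 0.605 (83 genes, which share the same libraries), and across all tested genes with a length it was 0.47 (16469 genes). Members with transcripts under 600 bp had a median log2 change of -0.73, and other genes of that length -0.58. From 600 to below 1000 bp the medians were -0.52 and -0.47, and from 1000 to below 1500 bp -0.46 and -0.32. Members of 1500 bp or more changed by -0.08 at the median, and other genes of that length by 0.09. At each length the members thus lay below other genes, by 0.15, 0.05, 0.14 and 0.17 from the shortest class to the longest. With the trend of each library on transcript length removed, an alternative chosen after seeing the data, 17 members fell and 13 rose in place of 61 and 3, and the median was -0.11. Among the falls of named genes that this alternative left without a call were those of Sdhd (-0.17, limma adjusted p = 0.0682), Uqcrc2 (-0.17, 0.0541), Uqcrb (-0.32, 0.0729), Cox7c (-0.40, 0.247) and Atp5c1 (-0.12, 0.114). Without P21 replicate 2, 49 fell and 3 rose, with a median of -0.36.

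The earlier changes followed length less closely. The Spearman correlation of the change with length was -0.235 across members and -0.222 across all genes from P3 to P7, and 0.137 and 0.0389 from P7 to P14. From P3 to P7 the members' median exceeded that of other genes by 0.35 under 600 bp, 0.39 from 600 to below 1000 bp, 0.36 from 1000 to below 1500 bp and 0.31 at 1500 bp or more. From P7 to P14 it exceeded them by 0.39, 0.41, 0.28 and 0.43 in the same order. Under 600 bp, however, 3 of 26 members were called higher from P7 to P14, against 13.3% of other genes of that length, and at 1500 bp or more 10 of 15 were, against 25.8%. With the length trend removed, 48 members rose from P3 to P7, 55 rose and 1 fell from P7 to P14, and 72 were higher and 3 lower in the adult than at P3. The parts of sequencing run, RNA quality and litter in these differences were not tested, since no label gives their values. The labels state only that degraded or contaminated RNA was left out.

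**Figure D3:**
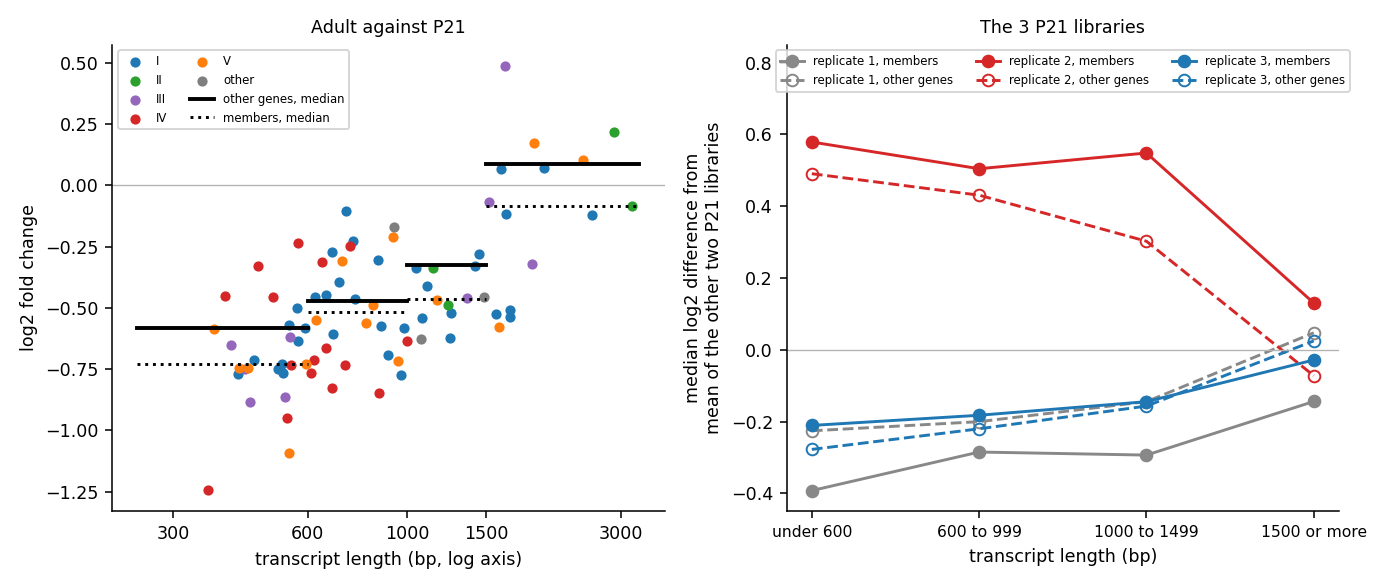
Left, log2 fold change of each member from P21 to the adult against its transcript length (log axis), coloured by complex, with medians of the members (dotted) and of other genes (solid) in 4 length classes. Right, median log2 difference of each P21 library from the mean of the other two, by length class, for members (filled) and other genes (open); replicate 2 lies at 0.58 for members under 600 bp and at 0.13 for those of 1500 bp or more.

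Markers of other cells moved over the same ages. The summed level of the 9 neuronal markers ranged from 68116 to 78941 at P7 and from 314948 to 318800.0 at P14. In that step 8 of these 9 rose, against 24.3% of all tested genes and 29 of the 83 members (34.9%). The summed markers of myelinating Schwann cells rose from between 190288 and 299511 at P3 to between 714562 and 879512 at P7. Of these markers 6 of 8 rose, against 15.4% of all tested genes. Their sum lay between 896009 and 1215720 at P14, between 530247 and 634548 at P21 and between 361911 and 416023 in the adult. From P21 to the adult 3 of these 8 fell and none rose, against 24.1% and 25.4% of all tested genes. Summed markers of cochlear fibrocytes, cells of the lateral wall, lay between 758210.0 and 1095760.0 at P21 and between 363764 and 568589 in the adult. Of these markers 3 of 5 fell, against 24.1% of all tested genes. Summed erythroid genes, from red cell precursors, lay between 18813 and 48554 at P21 and between 2490.1 and 4699 in the adult, and all 6 fell. Of 6 hair cell markers 4 fell and none rose in that step. The summed neuronal markers went the other way, from between 290845 and 356827 at P21 to between 429150 and 454976 in the adult. Of the 9 neuronal markers 5 rose and none fell, against 25.4% of all tested genes that rose. Between P7 and P14 all 7 osteoclast markers and all 6 markers of dividing cells fell, against 23.8% of all tested genes. The part of these cells in the changes of the respiratory chain genes was not tested.

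**Figure D4:**
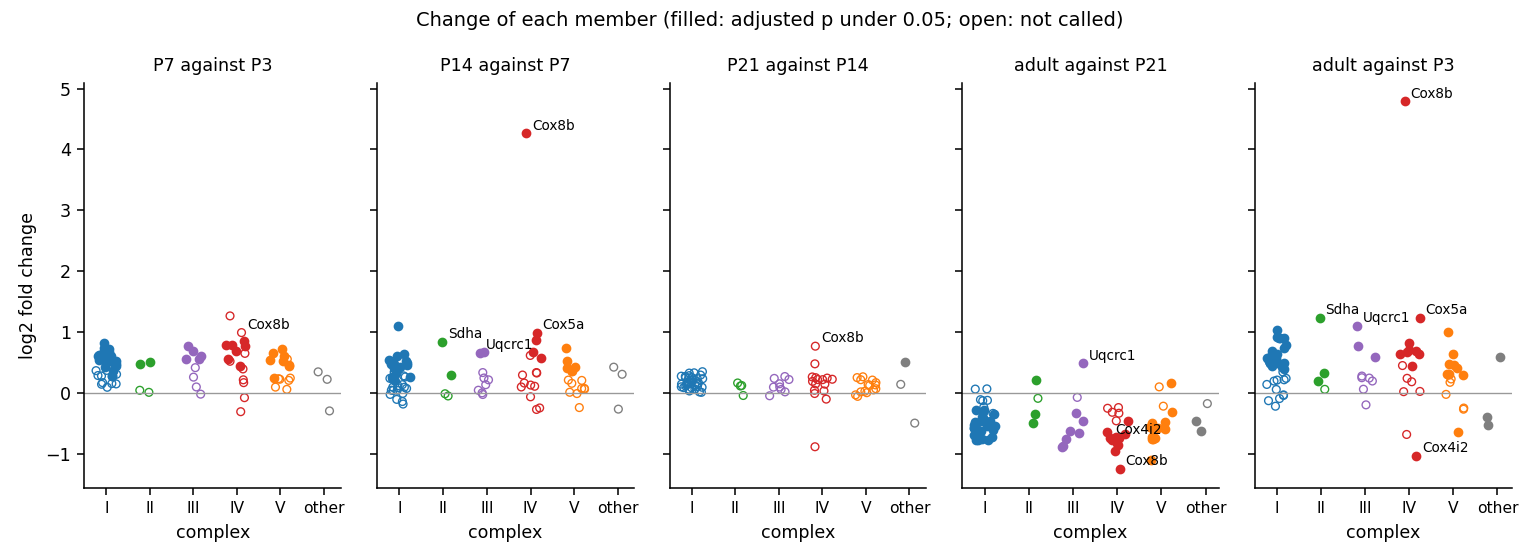
Log2 fold change (vertical axis) of each member in 5 comparisons, by complex; filled points had an adjusted p under 0.05 in limma and open points did not. Most members lie above 0 from P3 to P7 and below 0 from P21 to the adult, and Cox8b lies far above all others from P7 to P14 and in the adult against P3.

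In complex I, the NADH dehydrogenase, 24 of 36 members rose from P3 to P7 and 15 of 36 from P7 to P14, and 28 of 36 fell from P21 to the adult with none rising. Of all tested genes 15.4%, 24.3% and 24.1% did so. The adult was higher than P3 for 24 and lower for none, against 34.4% and 34.3% of all genes. The 7 nuclear core subunits, which carry the flavin and iron-sulphur centres, included 4 that rose from P3 to P7, 5 that rose from P7 to P14 and 3 that fell in the adult. Of the other 29 members 20 rose from P3 to P7, 10 from P7 to P14 and 25 fell in the adult, and the difference between these sets was not tested. Ndufs1, the large iron-sulphur subunit, read 6119, 5372 and 5569 at P3, 8295, 8992 and 8851 at P7 and 11421, 10328 and 9863 at P14. Every P7 library was above every P3 library, and the log2 change was 0.62 ± 0.08 (limma adjusted p = 0.000127). Its adult libraries, at 10953, 10708 and 10275, overlapped those of P21, at 10830.3, 11395 and 12570.3, with no call between the 2 ages.

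Ndufv1, which binds NADH, gained most between P7 and P14. It read 5595, 5109 and 5848 at P7 and 9016, 8481 and 7919 at P14, without overlap (log2 0.62 ± 0.07, limma adjusted p = 7.69e-06). Ndufs7, an iron-sulphur protein near the quinone site, rose in the same step by 0.64 ± 0.10. Ndufs8 and Ndufv2, both iron-sulphur proteins, had an earlier course: they rose by 0.68 ± 0.13 and 0.73 ± 0.13 from P3 to P7 and changed by 0.05 ± 0.13 and 0.09 ± 0.13 from P7 to P14. The 2 also fell in the adult, by 0.58 ± 0.13 and 0.51 ± 0.13 on the log2 scale. Ndufs3 rose from P7 to P14 by 0.48 ± 0.13 and its fall in the adult, -0.34 ± 0.13 (limma adjusted p = 0.0449), was lost in 11 of 15 fits that left out 1 library, stood at -0.15 without P21 replicate 2 and turned to 0.04 with the length trend removed.

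Among the accessory subunits of complex I, Ndufb4 rose most from P3 to P7 (log2 0.83 ± 0.20), from a mean of 231 ± 37.1 (SD, n = 3) to 407 ± 23.8. Ndufab1, the mitochondrial acyl carrier protein, rose by 1.10 ± 0.39 from P7 to P14, but it was sparse, at 100.3, 51.3 and 116 and then 215, 185 and 150.2. The limma adjusted p was 0.0329 and lost its call without P7 replicate 5 (0.152), P14 replicate 1 (0.0979) or P14 replicate 2 (0.0767). Ndufv3, an accessory subunit of the NADH-oxidizing part, had its highest mean at P7 and was at 2949, 2357 and 2698 in the adult, against 3285, 3074 and 2887 at P3 (log2 -0.21 ± 0.11, limma adjusted p = 0.113), short of the threshold.

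Complex II, succinate dehydrogenase, also belongs to the citric acid cycle and has nuclear subunits only. Its 4 genes took different courses. Sdha, the flavoprotein that oxidizes succinate, read 9839, 9950.3 and 10049 at P3 and 10049, 10359.6 and 10472 at P7, then 18654, 18929.5 and 17666 at P14, 20120.5, 19888 and 20320.1 at P21 and 23933, 23758 and 22526 in the adult. No P14 library overlapped P7, and no adult library overlapped P21. The log2 rise from P7 to P14 was 0.84 ± 0.05 (limma adjusted p = 7.51e-08), and from P3 to the adult it was 1.23 ± 0.05, or 2.35-fold. The smaller step from P21 to the adult, 0.22 ± 0.05 (limma adjusted p = 0.00485), became -0.02 under quantile normalization and had an adjusted p of 0.0719 when only these 2 ages were fitted.

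Sdhb, the iron-sulphur subunit, and Sdhd, a membrane anchor, followed the early course instead. Sdhb rose from 5074, 4359.7 and 4333 at P3 to 6670.1, 6409 and 6448 at P7 (log2 0.51 ± 0.09) and changed by -0.01 ± 0.09 from P7 to P14, the step in which Sdha rose most. Sdhd rose by 0.48 ± 0.13 from P3 to P7 (limma adjusted p = 0.0582 without P3 replicate 3) and changed by -0.04 ± 0.13 from P7 to P14. Both fell from P21 to the adult, Sdhb by 0.34 ± 0.09 and Sdhd by 0.49 ± 0.13 on the log2 scale; with the length trend removed Sdhb stood at 0.01 and Sdhd at -0.17 (limma adjusted p = 0.0682), and without P21 replicate 2 Sdhd stood at -0.32. Sdhc, the other anchor, varied least of the 83 members, with means from 2286 ± 86.4 at P3 to 2855 ± 76.3 at P14 (SD, n = 3). Per kilobase of transcript, Sdha stood at 3429.7 at P3 and 8071 in the adult, Sdhb at 4018 and 5056, and Sdhd at 4374 and 4558.

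In complex III, which passes electrons from ubiquinol to cytochrome c, 5 of 9 members rose from P3 to P7 (15.4% of all tested genes did), 2 rose from P7 to P14 (24.3% of all), and 7 fell while 1 rose from P21 to the adult (24.1% and 25.4% of all). The count from P7 to P14 was thus no higher than the share of all genes. Uqcrc1, a large core protein on the matrix side, was the member that rose in the adult. It read 5435, 5624 and 5403 at P7, 8694, 8715 and 8714 at P14, 8334, 8106 and 8979 at P21 and 11843, 11919 and 11878 in the adult. The adult libraries lay far above all others and close together. The log2 rise was 0.67 ± 0.06 from P7 to P14 (limma adjusted p = 1.76e-06) and 0.49 ± 0.06 from P21 to the adult (adjusted p = 0.00014), and both kept their call in every alternative run.

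Its partner in the core, Uqcrc2, took the early course. It read 8635, 8012 and 7661 at P3 and 12990.3, 13865 and 12308 at P7 (log2 0.69 ± 0.09), changed by 0.01 ± 0.09 from P7 to P14 and fell by 0.32 ± 0.09 in the adult. Cyc1, cytochrome c1, rose from 5557, 5414 and 5439 at P7 to 9388, 8578 and 8275 at P14 (log2 0.68 ± 0.11, limma adjusted p = 0.000199) and changed by -0.07 ± 0.11 from P21 to the adult. Uqcrfs1, the Rieske iron-sulphur protein, changed by 0.34 ± 0.14 from P7 to P14, short of the threshold (limma adjusted p = 0.0559). Of the small subunits, Uqcrb rose by 0.78 ± 0.22 from P3 to P7, a call lost without P3 replicate 2 (limma adjusted p = 0.0623), P3 replicate 3 (0.084), P7 replicate 5 (0.063) or P7 replicate 6 (0.0575). In the adult, Uqcr11 fell by 0.88 ± 0.16 and Uqcrb by 0.86 ± 0.22. The Uqcrb change was -0.55 without P21 replicate 2 and -0.56 without the libraries low in Eif2s3y. Its call was lost with the length trend removed (-0.32, limma adjusted p = 0.0729).

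Sdha and Uqcrc1 rose together at P14 and in the adult. Their promoter windows, from 250 bases before to 50 after the annotated start, are shown with capitals at matches to the binding motif of nuclear respiratory factor 1 (NRF1, the letters GCGCA, then any base, then GCGC), an activator of respiratory chain genes. The sequences are from RefSeq, build GRCm38.p6. The Sdha window (chr13:74350191-74350490, minus strand) holds 3 matches and the Uqcrc1 window (chr9:108936398-108936697, plus strand) holds 2. Atp5b also rose in both steps, though its call in the adult was lost in several alternatives, and its window, not shown, holds 0 matches. Whether such matches bear on the course of a gene was not tested.
Sdha: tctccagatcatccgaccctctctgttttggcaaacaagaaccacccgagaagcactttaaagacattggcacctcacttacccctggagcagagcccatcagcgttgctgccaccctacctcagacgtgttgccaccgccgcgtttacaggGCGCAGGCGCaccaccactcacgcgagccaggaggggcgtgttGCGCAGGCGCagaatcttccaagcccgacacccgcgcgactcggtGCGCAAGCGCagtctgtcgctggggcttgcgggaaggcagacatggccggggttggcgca
Uqcrc1: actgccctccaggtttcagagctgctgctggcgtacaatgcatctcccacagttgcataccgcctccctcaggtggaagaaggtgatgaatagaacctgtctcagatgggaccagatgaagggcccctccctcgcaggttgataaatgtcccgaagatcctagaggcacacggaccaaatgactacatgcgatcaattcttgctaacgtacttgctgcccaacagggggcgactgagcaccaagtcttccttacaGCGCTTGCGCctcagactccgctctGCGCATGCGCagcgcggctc

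Promoter windows of the same length were found for 68 of the 83 members and searched on both strands for 4 motifs. The NRF1 motif was in 17 of 68 (25%), against 5.19% of the 27025 genes with a window and 7.17% of the coding ones. The ETS motif CCGGAAG, which GABP binds, was in 16 (23.5%), against 9.93% and 12.9%. The YY1 motif, AA, then any base, then ATGGCGG, was in 6 (8.82%), against 1.59% and 2.26%, and the motif of estrogen-related receptors, TCAAGGTCA, in 2 (2.94%), against 0.466% and 0.377%. A match describes the letters only. Ndufb4, which had the early course, also held 3 NRF1 matches.

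In complex IV, cytochrome c oxidase, 7 of 16 members rose from P3 to P7, 5 rose from P7 to P14 and 10 fell from P21 to the adult. Of all tested genes 15.4%, 24.3% and 24.1% did so, and the count from P7 to P14 is near that share. Ndufa4, named after complex I but found in complex IV, rose most among the members called from P3 to P7. It read 7069, 5791 and 5914 at P3 and 10612, 12384 and 11038 at P7 (log2 0.86 ± 0.15, limma adjusted p = 0.0014). Cox5a, a matrix-side subunit, read 5745, 4556 and 5616 at P7 and 11725, 10076 and 9871 at P14, and 8903, 9555 and 9853 in the adult. Its libraries at P14 lay well above those at P7 (log2 0.996 ± 0.14, limma adjusted p = 7.27e-05), and the adult exceeded P3 by 1.24 ± 0.14. Cox4i1, the common form of the regulatory subunit 4, and Cox6a1 also rose in that step, by 0.57 ± 0.10 and 0.68 ± 0.10.

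Cox5b, which lies beside Cox5a in the enzyme, was listed at low values, 163, 132 and 158 at P7 and 329, 274 and 233 at P14. It rose by 0.87 ± 0.29 (limma adjusted p = 0.0244), a call lost without P7 replicate 5 (0.0819), P14 replicate 1 (0.086) or P14 replicate 2 (0.0576). Its fall in the adult, -0.85 ± 0.29, was not called without P21 replicate 2 (-0.45, limma adjusted p = 0.12), adult replicate 1 (0.0749), adult replicate 2 (0.0605) or adult replicate 3 (0.0519). Cox7c, a small subunit, rose from P3 to P7 by 0.79 ± 0.28 at a limma adjusted p of 0.0477, which passed the threshold in 5 of 15 fits that left out 1 library. Without P3 replicate 3 the change was 0.59 (adjusted p = 0.185) and without P7 replicate 4 it was 0.71 (0.142).

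The largest change of any member was that of Cox8b, an isoform of the smallest oxidase subunit known from heart, skeletal muscle and brown fat. The gene lies on chromosome 7 at chr7:140898942-140900446 (mm10). Its libraries read 43, 26.6 and 12.2 at P3 and 28.9, 61 and 67.6 at P7, then 1091, 1112 and 742 at P14, 1414, 2130.2 and 1492 at P21 and 588, 804 and 713 in the adult. Every library from P14 on lay above every library at P3 and P7, and P3 and P7 overlapped. The log2 rise from P7 to P14 was 4.26 ± 0.39, or 19.2-fold (limma adjusted p = 1.69e-06), and it ranged from 3.89 to 4.49 over 26 alternatives, called in each. The fall in the adult, -1.24 ± 0.39 (adjusted p = 0.019), was not called without P21 replicate 2 (0.0701) or adult replicate 1 (0.0628), nor with the length trend removed (-0.62, adjusted p = 0.179). Without the 4 libraries low in Eif2s3y the change was -1.12.

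Cox8a, the common isoform, stayed far more abundant. It read 11548, 9554 and 10832 at P7 and 14968, 12696 and 12564 at P14, a log2 change of 0.33 ± 0.15 that was not called (limma adjusted p = 0.0864). Per kilobase, Cox8b made up 0.525% ± 0.274 of the pair at P3 (SD, n = 3), 0.764% ± 0.332 at P7, 10.03% ± 1.77 at P14, 14.1% ± 0.519 at P21 and 10.4% ± 1.58 in the adult. This ratio within a library does not depend on its size factor, and it did not set P21 replicate 2 apart, whose share lay with those of the other P21 libraries (13.5% to 14.5%). The transcripts differ in length, at 360 bp for Cox8b and 550 bp for Cox8a, so a length trend can still enter the ratio. The log2 ratio differed over the 5 ages in an exact permutation test over all assignments of the libraries to ages (two-sided p = 0.000522, adjusted over 8 pairs 0.00139).

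Markers of tissues known for Cox8b were measured over the same step. The summed level of 12 skeletal muscle genes ranged from 707 to 1094 at P7 and from 621 to 841 at P14, and 2 of the 11 tested rose while 2 fell. At P14, 2 of the 12 were under a value of 10 in each library. For heart muscle genes the sums were 95.9 to 143 (P7) and 84.8 to 136 (P14), and for brown fat genes (5 of 6 listed) 132 to 393 and 63.3 to 144. Ckm, the muscle creatine kinase, read 5.17, 1.02 and 4.29 at P14, and Ucp1, the uncoupling protein of brown fat, 4.14, 1.02 and 5.37. Other lists did move over that step: the summed cochlear fibrocyte markers lay between 131564 and 147744 at P7, between 392053 and 783177 at P14, between 758210.0 and 1095760.0 at P21 and between 363764 and 568589 in the adult, with 2 of 5 called higher from P7 to P14, and 8 of 9 neuronal markers rose. Of all tested genes 24.3% rose and 23.8% fell in that step. The part of these cells in the change of Cox8b was not tested. The promoter windows of the 2 isoforms are shown because they belong to the pair that changed most: that of Cox8a (chr19:7217567-7217866, minus strand) holds 2 matches to the ETS motif, in capitals and read as CTTCCGG on the strand shown, and that of Cox8b (chr7:140900397-140900696, minus strand) holds none of the 4 motifs.
Cox8a: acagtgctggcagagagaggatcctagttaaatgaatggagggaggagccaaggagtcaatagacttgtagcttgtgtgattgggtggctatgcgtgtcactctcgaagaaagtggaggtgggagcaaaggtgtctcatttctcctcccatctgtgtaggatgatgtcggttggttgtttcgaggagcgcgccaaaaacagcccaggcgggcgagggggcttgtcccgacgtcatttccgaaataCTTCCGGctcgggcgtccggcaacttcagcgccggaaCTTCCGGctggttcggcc
Cox8b: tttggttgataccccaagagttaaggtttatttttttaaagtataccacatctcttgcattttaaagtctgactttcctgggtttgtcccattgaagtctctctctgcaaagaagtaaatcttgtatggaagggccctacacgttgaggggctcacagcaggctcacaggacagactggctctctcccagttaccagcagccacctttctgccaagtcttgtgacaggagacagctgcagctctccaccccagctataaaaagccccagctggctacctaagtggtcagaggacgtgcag

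The other isoform pairs changed less, and 7 of 8 differed over the ages at an adjusted p under 0.05 in the exact permutation test. Transcript lengths differ within pairs, as for Atp5g2 (441 bp) and Atp5g3 (714 bp), and no ratio was tested with the length trend removed. Cox4i2, an isoform known from lung, pericytes and hypoxic cells, read 135, 149.9 and 104 at P3 and 46.8, 70 and 72.9 in the adult and fell by 1.03 ± 0.20 on the log2 scale (limma adjusted p = 0.000491). Its share of the pair with Cox4i1 per kilobase was 1.34% ± 0.229 at P3 and 0.423% ± 0.110 in the adult (SD, n = 3; exact permutation p = 9.99e-06, adjusted 7.99e-05). The summed markers of pericytes and vascular smooth muscle lay between 15286 and 17968 at P3 and between 17353 and 21349 in the adult. These 10 markers were split, with 5 higher and 2 lower (log2 changes from -1.47 to 2.43), against 34.4% and 34.3% of all tested genes. The part of these cells in the fall of Cox4i2 was not tested. Ndufa4l2, a hypoxia-inducible relative of Ndufa4, read 104, 109 and 109 at P3 and 90.4, 89.1 and 83.6 at P7. Its share of the pair with Ndufa4 was 1.12% ± 0.148 and 0.504% ± 0.0441 (exact permutation over 5 ages, adjusted p = 0.00237). In that step Ndufa4 rose by 0.86 ± 0.15 on the log2 scale. Ndufa4l2 itself was called in none of the 4 steps, and its mean was highest at P14 (119, against 107 at P3). Its difference between adult and P3, -0.52 ± 0.22 (limma adjusted p = 0.0461), was lost in 10 of 15 fits that left out 1 library, and stood at -0.23 without adult replicate 3.

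Cox6a2, the muscle form of subunit 6a, was near the floor of 3 reads, which is a value of 2.53 to 3.65. It read between 8.45 and 19.4 at P7 and between 2.08 and 3.65 in the adult. Cox7a1, the muscle form of subunit 7a, read 156, 99.6 and 73.5 at P3 and 239, 152 and 175 in the adult, and was higher in the adult by 0.82 ± 0.25 (limma adjusted p = 0.00947, and 0.051 without P3 replicate 3). Its share of the pair with Cox7a2 was 4.25% ± 1.08 at P3 and 5.38% ± 1.02 in the adult, without a difference over the ages beyond the spread (exact permutation p = 0.210). Cox6b2, a testis form of subunit 6b, was 4.78% ± 0.445 of its pair at P3, 2.79% ± 0.194 at P14 and 4.28% ± 0.186 in the adult (exact permutation, adjusted p = 0.00154), while none of its own changes was called.

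**Figure D5:**
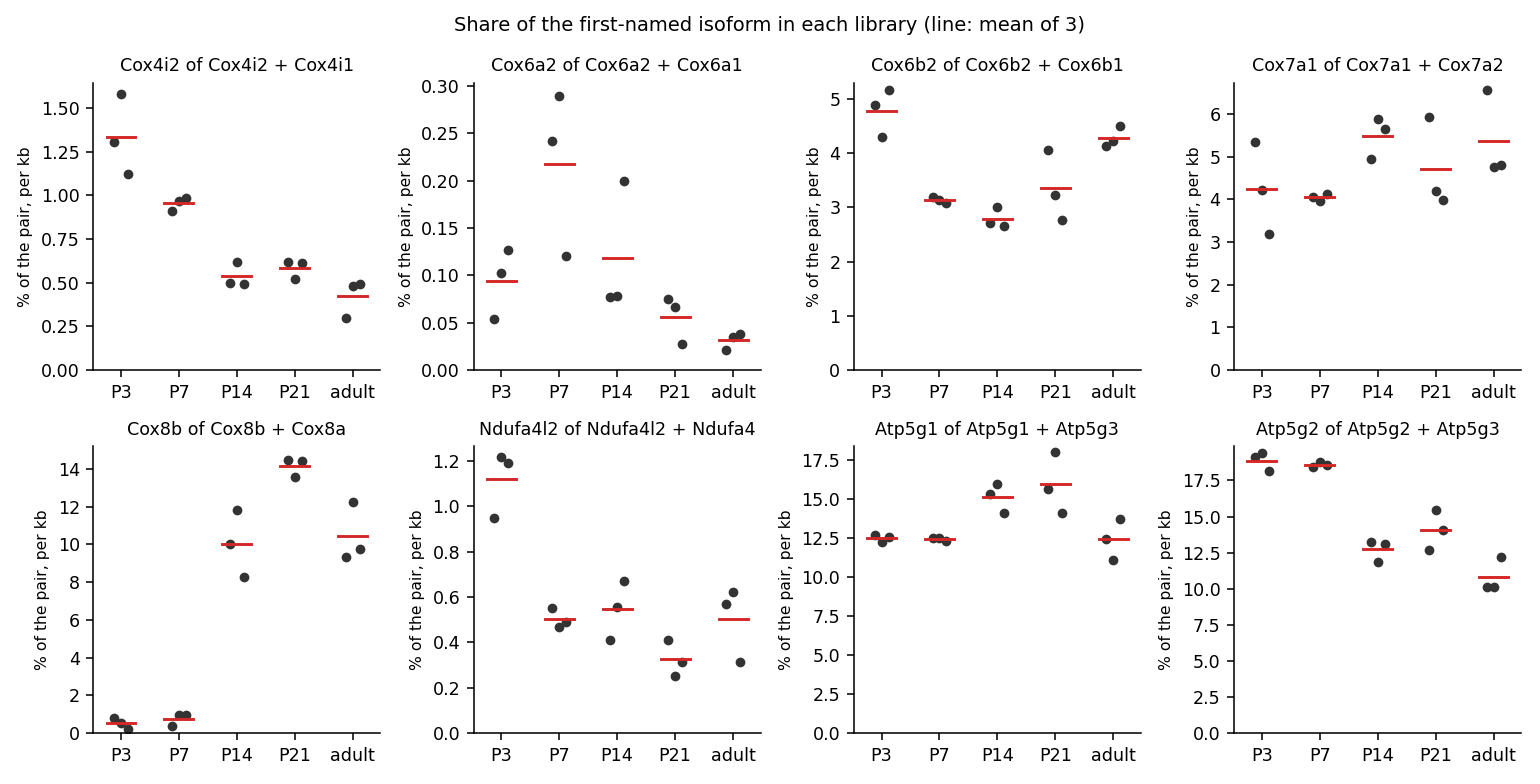
Share of the first-named gene in each of 8 isoform pairs, as a percentage of the summed level per kilobase (vertical axis from 0), in each library (points) at 5 ages, with the mean of 3 libraries (line). Cox8b goes from 0.525% at P3 to 14.1% at P21, Cox4i2 from 1.34% at P3 to 0.423% in the adult, and Atp5g2 from 18.9% to 10.8%.

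In complex V, the ATP synthase, 8 of 15 members rose from P3 to P7 and 5 from P7 to P14, and 12 fell while 1 rose from P21 to the adult. Of all tested genes 15.4% rose in the first of these steps, 24.3% in the second and 24.1% fell in the last. The 10 genes of the peripheral stalk and the membrane part fell in the adult, and of the 5 genes of the F1 part, which holds the catalytic head and the central stalk, 2 fell and 1 rose. The parts also differ in transcript length. Atp5a1 (2471 bp) and Atp5b (1916 bp), both of F1, are the longest of complex V. The F1 genes that fell were Atp5c1 (1166 bp) and Atp5e (421 bp), while Atp5d (931 bp) was not called. The difference between the parts was not tested. With the length trend removed, the falls of Atp5g1 (-0.20, limma adjusted p = 0.102) and Atp5g2 (-0.16, 0.145) lost their call and Atp5g3 turned to 0.17. Atp5b, the catalytic beta subunit, was the most abundant member per kilobase, at 19978 at P3 and 39974 in the adult. It read 37851, 37877 and 39108 at P3, 45923, 44372 and 46964 at P7, 67565, 65684 and 65723 at P14, 63379, 68675 and 71974 at P21 and 78992, 74046 and 76731 in the adult. P3, P7 and P14 did not overlap. The rise from P3 to P7, 0.26 ± 0.06, became 0.07 under quantile normalization (limma adjusted p = 0.487), and the log2 rise over the whole span was 1.0003 ± 0.06 (limma adjusted p = 1.2e-08). Its step from P21 to the adult, 0.17 ± 0.06 (adjusted p = 0.0384), was -0.16 under quantile normalization and was lost in edgeR (0.0623) and without P7 replicate 4 (0.0561), P14 replicate 2 (0.0503), P21 replicate 1 (0.151), adult replicate 1 (0.12) or adult replicate 3 (0.0851). The call was also lost with only these 2 ages fitted (0.187) and with the replicate block (0.108). Without the libraries low in Eif2s3y the change was 0.09.

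Atp5a1, the alpha subunit, read 37744, 37843 and 37246 at P7 and 53181, 48976 and 49866 at P14 (log2 0.43 ± 0.06) and changed by 0.11 ± 0.06 from P21 to the adult. Atp5c1, the gamma subunit of the rotor, took the early course instead, with 0.53 ± 0.11 from P3 to P7, 0.08 ± 0.11 from P7 to P14 and -0.47 ± 0.11 in the adult. Of the membrane subunits, Atp5l fell most in the adult, from 888, 1871 and 964 to 548, 524 and 571 (log2 -1.09 ± 0.21). P21 replicate 2 lay far above the other 2 there, and the adult libraries lay below all 3.

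The c ring of the rotor is encoded by several genes with the same mature peptide. Atp5g3 was the most abundant of them, at 13602 per kilobase at P3. Atp5g1 rose from 1354, 1343 and 1364 at P7 to 2493, 2307 and 2013 at P14 (log2 0.74 ± 0.17) and Atp5g3 by 0.41 ± 0.10 (0.25 under quantile normalization, limma adjusted p = 0.0702). From P21 to the adult Atp5g1 fell by 0.73 ± 0.17 on the log2 scale, and stood at -0.48 without P21 replicate 2 and at -0.20 (limma adjusted p = 0.102) with the length trend removed. Atp5g3 changed by -0.31 ± 0.10 in that step (limma adjusted p = 0.0232), a call lost without P21 replicate 2 (-0.18, 0.0778), adult replicate 2 (0.0699) or adult replicate 3 (0.0611), with only these 2 ages fitted (0.102) and with the replicate block (0.0606). Without the libraries low in Eif2s3y the Atp5g3 change was -0.17. With the length trend removed it turned to 0.17 (0.0211). Atp5g2 went the other way over the whole span: it read 1548, 1348 and 1292 at P3 and 879, 812 and 1015 in the adult, a fall of 0.63 ± 0.16 on the log2 scale (limma adjusted p = 0.00311) with no overlap. Its share of the pair with Atp5g3 was 18.9% ± 0.659 at P3, 18.6% ± 0.187 at P7, 12.7% ± 0.747 at P14 and 10.8% ± 1.19 in the adult (SD, n = 3; exact permutation, adjusted p = 0.000228). Atp5g1 made up 12.5% ± 0.237 of its pair with Atp5g3 at P3, 15.9% ± 1.97 at P21 and 12.4% ± 1.32 in the adult (adjusted p = 0.00727 in the same exact test).

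Of the 3 genes outside the complexes, Cox7a2l, a factor that joins complexes III and IV into supercomplexes, had its highest mean at P7 and was below P3 in the adult. It read 5963, 5452 and 5025 at P3, 6863, 7074 and 6994 at P7 and 4169.6, 4050.2 and 4319 in the adult (log2 -0.39 ± 0.13 against P3, limma adjusted p = 0.0142, 0.0589 without P3 replicate 1). Atp5s, a coupling factor related to complex V, was the member called between P14 and P21. It read 752, 768 and 703 at P14 and 842, 1440.3 and 969 at P21 (log2 0.51 ± 0.15, limma adjusted p = 0.049). P21 replicate 2 was the highest, without it the change was 0.29, and the call was lost in 14 of 15 fits that left out 1 library, all but the fit without P21 replicate 1.

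Levels per kilobase differed between complexes and within them. Among subunits outside the isoform set, the median level in the adult was 3532 for complex I, 4807 for complex II, 6183 for complex III, 14228 for complex IV and 6736 for complex V. These medians leave out 7 subunits under 600 per kilobase (Ndufs5, Ndufab1, Cox7c, Ndufa12, Cox5b, Ndufb4 and Atp5h), a limit set after the values were seen. The other 68 ranged from 829 to 39974. Of the 7, 6 had at least 1 pseudogene copy in the annotation with 95% identity over 80% of the coding sequence, against 13 of the other 68. Atp5l, with 7 such copies, was not among them. Reads of such genes can be shared with their copies, and how the authors' counting treated them is not given in the sources used here, so the levels of these 19 members are uncertain. Members with and without a copy had median changes of -0.64 and -0.49 from P21 to the adult, and of 0.56 and 0.45 from P3 to P7.

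Assembly factors, which insert cofactors and build the complexes, were counted from lists. From P7 to P14, 12 of 22 complex IV assembly genes rose and none fell (median log2 0.29), 5 of 15 rose and 1 fell for complex I (0.11), and 3 of 6 rose for complex III (0.38). Of all tested genes 24.3% rose and 23.8% fell in that step, with a median of -0.02. Cox15 and Cox10, which make the heme of the oxidase, rose by 0.60 ± 0.06 and 0.72 ± 0.08 in that step. From P3 to P7, 6 of the 22 complex IV assembly genes rose and 2 fell (15.4% and 12.8% of all tested genes). Cox15 and Cox10 were the 2 that fell, by 0.28 ± 0.06 and 0.26 ± 0.08 on the log2 scale. Cycs, cytochrome c, rose by 0.86 ± 0.17 and 0.45 ± 0.17 in the first 2 steps and fell by 0.59 ± 0.17 in the adult.

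Genes of the citric acid cycle, which feeds the chain with NADH and succinate, were counted in the same way. From P7 to P14, 9 of 12 rose and 1 fell (median 0.39), and 10 of 12 were higher and 1 lower in the adult than at P3 (median 0.70, against -0.01 in all tested genes). The shares of all tested genes were 24.3% higher and 23.8% lower in the step, and 34.4% and 34.3% in the adult against P3. Ogdh, a subunit of the oxoglutarate dehydrogenase that precedes Sdha in the cycle by way of succinyl-CoA, rose by 0.98 ± 0.11 from P7 to P14 and by 0.97 ± 0.11 from P21 to the adult. Idh3a, the catalytic subunit of isocitrate dehydrogenase, rose by 0.83 ± 0.08 from P7 to P14 and changed by 0.03 ± 0.08 from P21 to the adult.

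Of 14 regulators of mitochondrial genes, 3 rose and 4 fell from P7 to P14, and 5 were higher and 5 lower in the adult than at P3. These shares are near those of all tested genes (24.3% and 23.8%, and 34.4% and 34.3%). The 3 that rose were Esrra and Esrrg, estrogen-related receptors, and Ppargc1a, their coactivator. Esrra read 1092, 1076 and 1164 at P7 and 3056, 2964 and 2819 at P14 (log2 1.41 ± 0.07, limma adjusted p = 1.19e-08). Esrrg rose by 1.48 ± 0.14 and Ppargc1a by 1.31 ± 0.13 in the same step, and both rose again from P21 to the adult, by 0.78 ± 0.14 and 0.79 ± 0.13. Nrf1 and Gabpa, named after their values were seen because their motifs had been searched, fell from P7 to P14 by 0.27 ± 0.07 and 0.33 ± 0.05 on the log2 scale. In that step 29 respiratory chain members rose and none fell (34.9%), against 24.3% of all tested genes that rose. The part of any of these regulators in the changes of the members was not tested.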

How the data were processed

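Bulk RNA-seq of mouse auditory nerve was analysed in 15 libraries, 3 at each of 5 ages. The authors deposited a table of normalized read counts per gene, a signal on the scale of reads divided by a size factor. Per the submitters' processing notes, Partek, TopHat2 and DESeq2 were used with the mouse build mm10. The annotation, counting settings and strand handling are not given in the sources used here. Of all values, 99.94% were whole multiples of 1 read (within 0.1), which gave the reads recovered per library.

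Values were tested as log2(value + 1) with limma 3.58.1 in R 4.3.3 on the 16723 genes that reached 10 in 3 or more libraries, with Benjamini-Hochberg adjustment and a threshold of 0.05. edgeR 4.0.16 and DESeq2 1.42.0 on recovered reads, other scalings, filters and pseudocounts, and leaving out each library were alternatives. The script was tested on simulated data. Transcript lengths and pseudogenes came from an mm10 gene annotation, promoters from RefSeq. Near-identical copies and low counts limit the precision of some members.

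The members, gene lists and tests were chosen with earlier results of these data known. A single member is counted with the others but is not reported by name here. Named were the 5 called members that rose and the 5 that fell most in each comparison, a set of core subunits and isoforms, members that went against their complex, and up to 4 genes of each pathway list.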

Additional observations from a re-analysis of the deposited data

How the results depend on the processing

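Counts of called members kept to within 1.5 times of the values above in most alternatives. Leaving out 1 library gave 32 to 61 from P3 to P7, 22 to 42 from P7 to P14, 0 to 2 from P14 to P21, 52 to 67 from P21 to the adult, 42 to 62 for adult against P3 and 80 to 81 jointly. From P14 to P21 the count was 0 under quantile normalization, 0 with TMM scaling, 0 without a filter, 0 when only 2 ages were fitted and 0 with the replicate block, and 2 with DESeq2 and 2 with the length trend removed. Without the libraries low in Eif2s3y the members' median in that step was 0.16. The count from P21 to the adult was 39 when only these 2 ages were fitted and 30 with the length trend removed, and that trend gave 56 from P7 to P14. Under quantile normalization 34 members were higher and 5 lower in the adult than at P3.

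Direction turned for Atp5b (-0.16) and Sdha (-0.021) from P21 to the adult and for Atp5c1 (-0.020) and Atp5g3 (-0.018) in adult against P3 under quantile normalization. It also turned for Atp5g3 (0.17), Ndufs3 (0.037) and Sdhb (0.013) from P21 to the adult with the length trend removed. The cause was not tested. Of the 8 isoform ratios, 7 differed over the ages in every fit without 1 library, and 8 under quantile normalization.

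Replicate numbers are shared by P3, P14, P21 and adult libraries, and no label says that they mark a pairing. The correlation of deviations between libraries of the same number had a median of 0.03 (-0.23 to 0.32 over 18 pairs), against -0.01 for other pairs. With the replicate block over those 12 libraries, 0 members were called from P14 to P21, 54 from P21 to the adult (52 lower, 2 higher) and 46 for adult against P3 (43 higher, 3 lower). Depth of 35250155 to 42258736 reads limits Cox6a2 and Cox7b2, which lie near the floor of 3 reads.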
